A study of Drosophila melanogaster with 18 samples.

Results

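The cytochrome P450 genes of Drosophila, named Cyp with a family number, were examined in the central nervous system (CNS) of larvae with neuronal TFAM overexpression, knock-down of an ETS factor, or both. Probe sets were taken as members when they carried a single gene symbol, on the platform or as its current form, that starts with Cyp followed by a digit. This gave 85 of the 18769 probe sets tested, for 83 genes, because Cyp12e1 and Cyp18a1 have 2 probe sets each. Of the 85, the probe sets of Cyp1 and Cyp40 belong to cyclophilins, which are protein-folding enzymes and not P450s, so the P450 account rests on 83 probe sets of 81 genes. A further 4 probe sets stand outside the rule, 2 with several symbols of which 1 is a Cyp name and 2 that have no symbol on the platform and a Cyp name in the study's supplementary tables. The rule used names only and no measured value, though earlier results of these data were known when members and lists were chosen. Probe sets with a mean log2 signal under 6 over all arrays are kept apart below as dim. This value is a divide used for description and not a detection call.

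P450s are haem enzymes that insert an oxygen atom into their substrate, and they need electrons from a redox partner. Most insect P450s sit in the endoplasmic reticulum, while the mitochondrial clan is imported into mitochondria and takes electrons through adrenodoxin-type ferredoxins. The large CYP3 and CYP4 clans include enzymes that break down insecticides and plant toxins and enzymes of fatty acid and hydrocarbon metabolism. The Halloween P450s make the moulting hormone ecdysone in the ring gland, an endocrine organ attached to the larval brain.

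Each of 18 arrays measured RNA from the whole CNS of 20 wandering larvae of the third instar, raised at 25 degrees, with 3 RNA samples for each of 6 genotypes. All genotypes carried nsybGal4, which drives transgenes in neurons and not in glia or the ring gland. The driver expressed UAS-TFAM3M with the Pnt RNAi line JF02227 (TFAM o/e, Pnt RNAi), UAS-TFAM3M with the Aop RNAi line 3166R1 (TFAM o/e, Aop RNAi), UAS-TFAM3M alone (TFAM o/e), or one of the RNAi lines alone (Pnt RNAi, Aop RNAi). The control was nsybGal4/+, with no UAS transgene. The effect of a transgene and that of the genetic background of its line were not tested apart. TFAM packages mitochondrial DNA, and its overexpression was used to disturb mitochondria. Pointed (Pnt) and Anterior open (Aop, also called Yan) are transcription factors downstream of Ras-ERK.

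The TFAM probe set read 11.84 to 12.58 on the 9 arrays with the TFAM transgene, against 10.35 to 10.85 on the other 9. The aop probe set read 10.56 to 10.92 on the arrays labelled Aop RNAi and 10.62 to 10.71 in control, so a loss of aop RNA was not seen in whole CNS, and the Aop labels are used as deposited. Pnt RNA was not analysed here. Neuron markers (elav, nSyb, brp and Rbp6; mean log2 8.80 to 9.59 per array) and glia markers (11 to 11.49) were present throughout. Control replicate 3 stood apart from the other control arrays, with correlations of 0.946 and 0.948 over the 8582 brighter probe sets, against 0.957 to 0.986 within the other genotypes, and with its testis markers at 8.37, against 3.31 to 6.63 elsewhere. Fat body markers (Fbp1, Fbp2 and Lsp2) were highest in Pnt RNAi replicate 1 (12.17) and TFAM o/e, Pnt RNAi replicate 2 (12.02), against 8.83 to 10.64 on the other 16 arrays. In whole-tissue RNA, fewer cells of a type and less RNA per cell cannot be told apart. Nothing in the labels says that the 3 samples of a genotype came from separate crosses, so the p-values measure the spread between these samples.

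Most P450 genes gave little signal in the larval CNS. A mean log2 signal of at least 6 was reached by 20 of the 83 P450 probe sets (24.1%), against 45.7% of all probe sets. Of the other 63, 14 averaged 5 to 6 and 49 averaged under 5, and 30 did not reach 5 on any of the 18 arrays. A value of 0 was listed on at least 1 array for 28 P450 probe sets. Next to the divide, Cyp9h1 averaged 6.25 and Cyp6g2 averaged 5.97. By clan, counting Cyp-named genes only, the mitochondrial clan (Cyp12, Cyp49 and Cyp301) had 5 of 9 probe sets at 6 or above. The CYP3 clan had 11 of 37, the CYP4 clan 4 of 32 and the CYP2 clan 0 of 5. P450 genes with other names, such as spo, spok, sad, dib and shd, are not in these counts. The spread between replicates of a genotype was a median SD of 0.36 for the 20 brighter P450 probe sets, against 0.23 for all 8582 brighter probe sets, and 0.98 for the 63 dim ones, against 1.03 for all dim probe sets.

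Cyp6a17 was the only one of the 83 P450 probe sets called in comparisons between single genotypes. A probe set outside the name rule that the study's tables name Cyp12a4 was called too and is described further on. Cyp6a17 belongs to the CYP3 clan and is known in flies from temperature preference behaviour and pyrethroid tolerance. Its probe set read 3.18, 4.24 and 4.21 in TFAM o/e, Pnt RNAi and 3.59, 3.85 and 3.92 in TFAM o/e, Aop RNAi. In TFAM o/e it read 3.39, 3.20 and 1.21. The single knock-downs stood far above these genotypes, at 6.11, 7.78 and 7.65 in Pnt RNAi and 8.64, 9.31 and 8.47 on the arrays labelled Aop RNAi, and the control arrays read 1.56, 3.35 and 0.84. No array of the 2 single knock-downs overlapped any of the other 12 arrays. Every array with the TFAM transgene was at 4.24 or lower, with or without a knock-down.

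**Figure D1:**
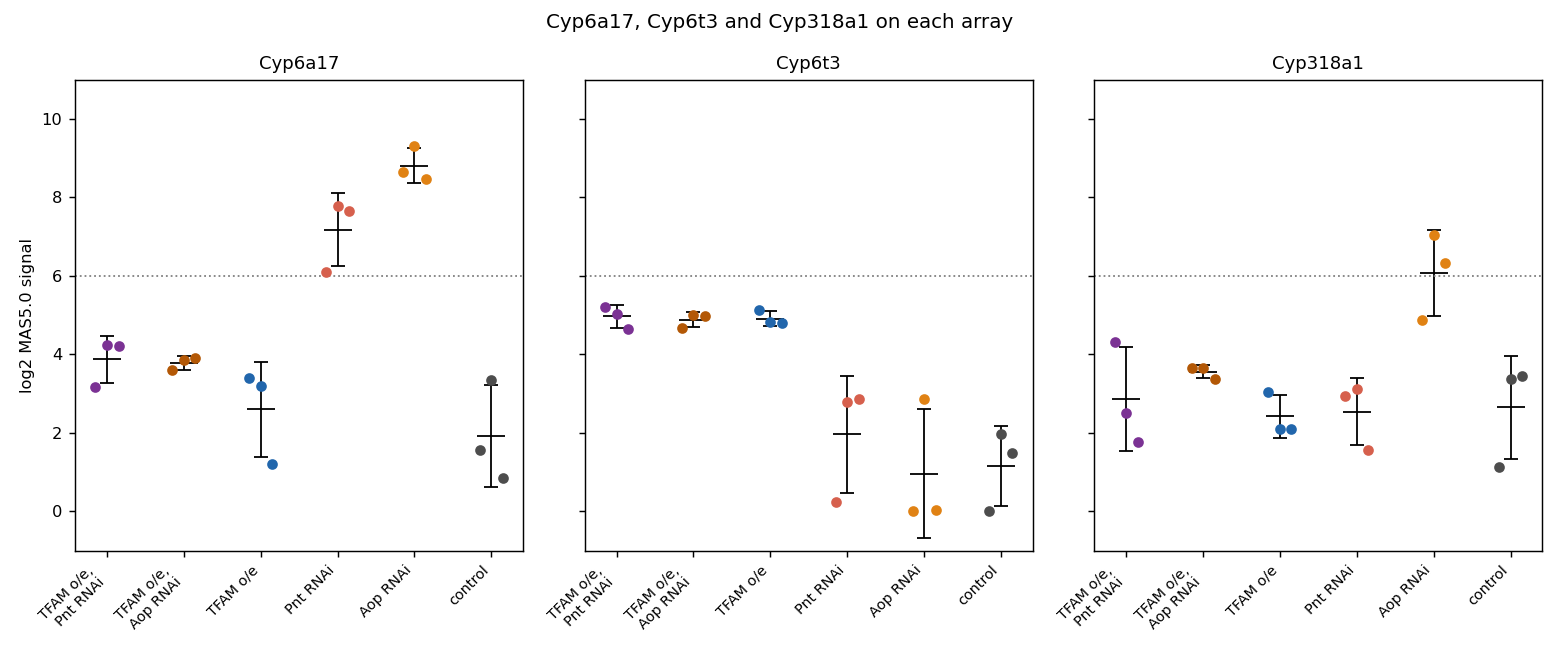
Log2 MAS5.0 signal of Cyp6a17, Cyp6t3 and Cyp318a1 on each of the 18 arrays (points), with the mean and SD of each genotype (dash and bars, n = 3); the dotted line marks log2 6. Cyp6a17 is high in the single knock-downs (6.11 to 9.31), Cyp6t3 is near 5 on the 9 TFAM o/e arrays, and Cyp318a1 passes 4.8 only on the arrays labelled Aop RNAi.

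Cyp6a17 rose in Pnt RNAi relative to control by 5.26 ± 0.67 on the log2 scale (SE; limma adjusted p = 0.000423), and in Aop RNAi by 6.89 ± 0.67 (limma adjusted p = 1.77e-05). It was the only one of the 85 members called in either comparison, where 0.293% and 0.176% of all probe sets were called. With TFAM overexpression on top of Aop RNAi it fell by 5.02 ± 0.67 relative to Aop RNAi alone (limma adjusted p = 0.000826; 1 of 85 members, 0.208% of all probe sets). The difference of TFAM o/e, Pnt RNAi from Pnt RNAi alone was -3.30 ± 0.67, which did not pass (limma adjusted p = 0.0597; 0 of 85 members, 0.139% of all probe sets). The change with TFAM overexpression differed between the Aop RNAi and the control background, with an interaction of -5.70 ± 0.94 (limma adjusted p = 0.0301; 1 of 85 members, 0.0533% of all probe sets), a call that was lost in 10 of 12 fits without 1 array (adjusted p up to 0.134). The same interaction with Pnt RNAi was -3.99 ± 0.94 and did not pass (limma adjusted p = 0.406; 0 of 85 members, 0.0266% of all probe sets).

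The control level of Cyp6a17 lies where MAS5.0 values are unsteady, so the sizes above depend on it. With signals under 32 (log2 5) set to 32, Cyp6a17 was higher by 2.18 in Pnt RNAi (limma adjusted p = 0.0135) and by 3.81 in Aop RNAi (limma adjusted p = 0.000145) than in control, and it was lower by 2.18 in TFAM o/e, Pnt RNAi than in Pnt RNAi (limma adjusted p = 0.0205) and by 3.81 in TFAM o/e, Aop RNAi than in Aop RNAi (limma adjusted p = 0.000113). Fitted on the 6 arrays of Pnt RNAi and control alone, the Pnt RNAi call was lost (limma adjusted p = 0.178). An ordinary test that takes the spread of each probe set alone called Cyp6a17 after adjustment in none of the comparisons between single genotypes (adjusted p = 0.302 to 0.491 for the 3 called by limma). This test called few probe sets of any kind, 1 of 18769 in Pnt RNAi and 1 in Aop RNAi against control. In TFAM o/e, Aop RNAi against Aop RNAi it called 0. Testis markers, of which 5 of 6 genes were measured, ran at 3.40 to 3.56 in Pnt RNAi and 3.31 to 4.05 in Aop RNAi, against 5.07 to 8.37 in control, and at 4.11 to 4.97 in TFAM o/e, Pnt RNAi, 3.96 to 5.79 in TFAM o/e, Aop RNAi and 3.44 to 6.63 in TFAM o/e. They were thus low on the arrays where Cyp6a17 was high, 2 of the 5 (Mst84Da and ocn) were at 0 on some array, none was called, and their part in the result was not tested. The fat body markers overlapped between the single knock-downs (8.84 to 12.17) and the other genotypes (8.83 to 12.02).

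In the gene order of RefSeq for Drosophila assembly Release 6 plus ISO1 MT, Cyp6a17 lies in an unbroken run of 9 P450 genes, between Cyp6a22 and Cyp6a23. The other 8 genes of the run (Cyp6a22, Cyp6a23, Cyp6a19, Cyp6a9, Cyp6a20, Cyp6a21, Cyp6a8 and Cyp317a1) were all dim, and 2 of their 72 tests over the 9 comparisons had an unadjusted p under 0.05, with none called by limma. Cyp6a23, its closest neighbour and a close paralogue, read 3.42, 4.09 and 3.92 in TFAM o/e, Aop RNAi, 4.94, 6.02 and 4.79 in Aop RNAi and 4.77, 4.46 and 4.63 in control. Its Aop RNAi arrays lay above both other groups without overlap, by a small margin over control, and the difference of TFAM o/e, Aop RNAi from Aop RNAi, -1.44 ± 0.59, did not pass (limma adjusted p = 1.0). Whether the probes of one paralogue also take up RNA of the other was not tested. Cyp6a20, known from male aggression, read 3.41 to 5.78 over all arrays. Outside the run, Cyp6a2, a P450 linked to DDT resistance, reached 2.58 at most.

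Cyp6t3 separated the arrays by TFAM. Cyp6t3 is a CYP3 clan gene needed for normal ecdysone production in the ring gland. It read 5.22, 5.04 and 4.65 in TFAM o/e, Pnt RNAi, 4.67, 5.01 and 4.98 in TFAM o/e, Aop RNAi and 5.13, 4.82 and 4.79 in TFAM o/e. It read 0.24, 2.78 and 2.87 in Pnt RNAi, 0.00, 2.86 and 0.03 in Aop RNAi and 0.00, 1.98 and 1.48 in control. All 9 arrays with the TFAM transgene were above all 9 without it, and none of the 18 was above 5.22.

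In single comparisons Cyp6t3 was 3.82 ± 0.81 higher in TFAM o/e, Pnt RNAi, 3.73 ± 0.81 in TFAM o/e, Aop RNAi and 3.76 ± 0.81 in TFAM o/e than in control, and limma's adjusted p was 0.0521, 0.0837 and 0.0914 in that order. No member was called in these comparisons, where 0.325%, 0.229% and 0.181% of all probe sets were. A fit to the arrays of all genotypes also took the replicate number as a block. With this block the calls for TFAM o/e, Pnt RNAi against control were 2 instead of 0. They were Cyp6t3 (limma adjusted p = 0.0247) and Cyp4d8 (limma adjusted p = 0.0452). Same-numbered arrays of that pair of genotypes deviated together (correlations 0.171, 0.268 and 0.233), but those of some other pairs did not. The correlation was -0.139 for number 2 of TFAM o/e against control and -0.0618 for number 1 of Aop RNAi against control. The block thus uses a pairing that was not seen throughout and is not stated in the labels. Without the block, Cyp6t3 was also called in that comparison after quantile normalization (limma adjusted p = 0.0259) or median centring (limma adjusted p = 0.0305). The Cyp4d8 call there was made only with the block. A contrast added after the data had been seen averaged the TFAM difference over the control, Pnt RNAi and Aop RNAi backgrounds. In it Cyp6t3 rose by 3.56 ± 0.47 (limma adjusted p = 0.000423) and Cyp6a17 fell by 2.55 ± 0.38 (limma adjusted p = 0.00191), as 2 of 85 members against 0.543% of all probe sets. For Cyp6a17 the average pools unlike changes. Its mean was 2.60 in TFAM o/e against 1.92 in control, and the fall was seen in the knock-down backgrounds only. With signals under log2 5 set to 5 the Cyp6t3 call was lost (limma adjusted p = 1.0), since its values then span 5 to 5.22. Averaged likewise over the control and TFAM o/e backgrounds, Cyp6a17 rose with Pnt RNAi by 3.27 ± 0.47 (limma adjusted p = 0.00133; 1 of 85 members, 0.304% of all probe sets) and with Aop RNAi by 4.04 ± 0.47 (limma adjusted p = 0.000194; 1 of 85 members, 0.197%). These averages pool unlike changes too. Within the TFAM o/e background the means were 3.88 with Pnt RNAi and 3.79 with Aop RNAi, against 2.60 without. The averaged Pnt RNAi call was lost with signals under log2 5 set to 5 (1.09, limma adjusted p = 0.115), and both were lost with the ordinary test of each probe set alone (adjusted p = 0.126 and 0.0715). That test called 35 and 12 of all 18769 probe sets in these averages. The ring gland markers read 9.57 to 10.89 in TFAM o/e, Pnt RNAi, 9.23 to 10.68 in TFAM o/e, Aop RNAi and 8.74 to 10.72 in TFAM o/e, against 8.98 to 10.08 in Pnt RNAi, 8.65 to 10.47 in Aop RNAi and 7.40 to 10.09 in control. They were somewhat higher with TFAM but overlapped, and their part in the Cyp6t3 result was not tested.

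The neighbours of Cyp6t3 in the gene order are Cyp6g2 and, next to it, Cyp6g1, the gene behind DDT resistance in field populations. Both overlapped between arrays with and without the TFAM transgene. Cyp6g1 read 8.78, 5.80 and 5.44 in Pnt RNAi, against 5.36, 5.07 and 4.41 in control, so that the groups did not overlap. It averaged higher in Pnt RNAi than in control by 1.73 ± 0.65, which did not pass (limma adjusted p = 0.542). Without Pnt RNAi replicate 1, the array with the highest fat body markers (12.17), the difference was 0.67. Cyp6g2 was between 3.90 and 7.35 and had no unadjusted p under 0.05 in any comparison.

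Cyp12a4, a mitochondrial P450 whose overproduction gives resistance to the insecticide lufenuron, is tied to a pair of probe sets that behaved differently. The member probe set, 1632114_at, read 7.36, 8.51 and 8.14 in TFAM o/e, Pnt RNAi, 7.44, 8.07 and 7.66 in TFAM o/e, Aop RNAi and 7.17, 8.11 and 8.35 in TFAM o/e. It read 8.33, 8.84 and 8.75 in Pnt RNAi, 7.84, 8.56 and 8.05 in Aop RNAi and 8.79, 8.78 and 8.62 in control. Every TFAM array was below the lowest control array, and so was every Aop RNAi array, while Pnt RNAi overlapped control. The differences from control were -0.73, -1.01 and -0.85 (SE 0.30 each) in TFAM o/e, Pnt RNAi, TFAM o/e, Aop RNAi and TFAM o/e, and none passed (limma adjusted p = 0.538, 0.384 and 0.658). Replicate 1 was the lowest array in all these genotypes. Without it the TFAM o/e difference was -0.50, and that of TFAM o/e, Pnt RNAi was -0.41.

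**Figure D2:**
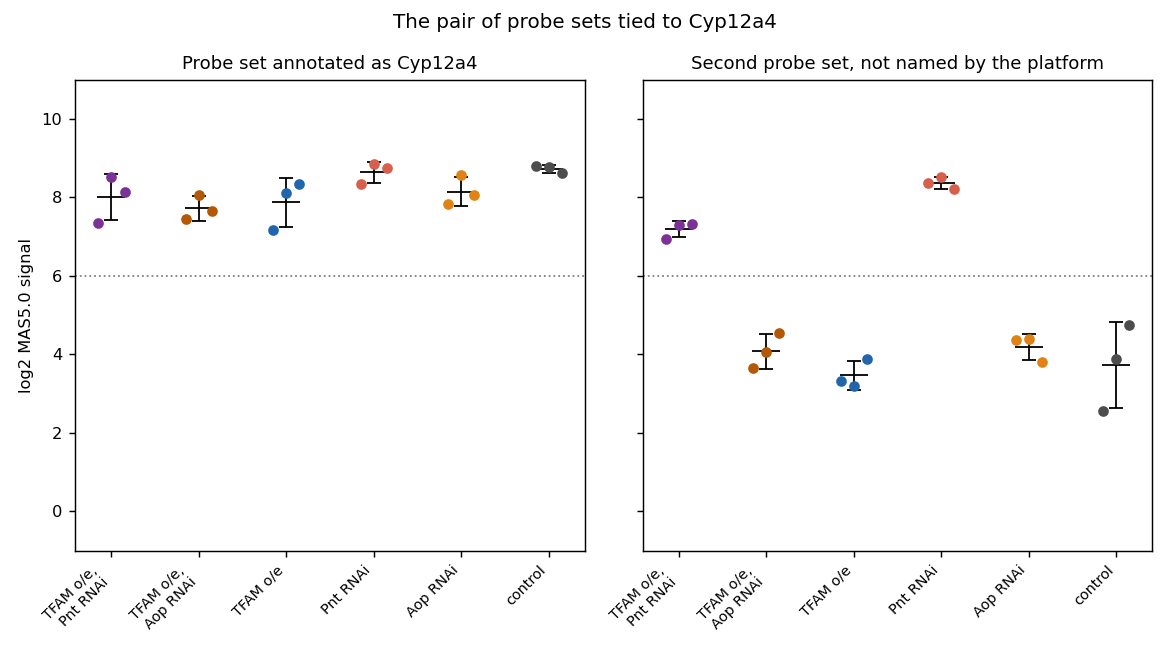
Log2 MAS5.0 signal of the probe set annotated as Cyp12a4 (left) and of 1637622_s_at (right) on each array, with mean and SD of each genotype (n = 3). The left probe set stays between 7.17 and 8.84, while the right one is at 6.95 to 8.53 on the 6 arrays with Pnt RNAi and at 4.74 or less on the other 12.

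The other probe set, 1637622_s_at, has no symbol in the platform annotation and is not a member. The study's supplementary tables name it Cyp12a4, and its suffix marks probes that can match more than 1 transcript. It read 6.95, 7.31 and 7.33 in TFAM o/e, Pnt RNAi and 8.38, 8.53 and 8.21 in Pnt RNAi. The other 12 arrays read 2.55 to 4.74, with control at 2.55, 3.89 and 4.74, so the 6 arrays with Pnt RNAi stood clear of the rest. It rose by 3.47 ± 0.46 in TFAM o/e, Pnt RNAi (limma adjusted p = 0.000729) and by 4.65 ± 0.46 in Pnt RNAi (limma adjusted p = 1.89e-05) relative to control, and by 3.73 ± 0.46 in TFAM o/e, Pnt RNAi relative to TFAM o/e (limma adjusted p = 0.000451). In that comparison 0 of 85 members were called, against 0.16% of all probe sets, and in TFAM o/e, Aop RNAi against TFAM o/e 0 of 85, against 0.0959%. The member probe set of Cyp12a4 differed from control by -0.09 ± 0.30 in Pnt RNAi (limma adjusted p = 0.966), so this pair of probe sets disagreed. The calls of 1637622_s_at in both Pnt RNAi genotypes were kept in all 6 fits without 1 array each. Those against control were lost when only the arrays compared were fitted (limma adjusted p = 0.123 in TFAM o/e, Pnt RNAi and 0.0561 in Pnt RNAi), and all 3 were lost with the ordinary test of each probe set alone (adjusted p = 0.152 to 0.531). In each of these 3 comparisons that test called 1 or 2 of all 18769 probe sets. Cyp12a5, the neighbour of Cyp12a4 in the gene order, was dim, at 0.68 to 5.42, and had no unadjusted p under 0.05 in any of the 9 comparisons.

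The other mitochondrial P450s included a small, even shift. Cyp12e1 (1626022_at) read 8.96 to 9.35 on the 15 arrays of the other genotypes, against 9.51, 9.53 and 9.45 in control. Every one of the 5 other genotypes thus lay below control without overlap, by 0.41 in TFAM o/e, Pnt RNAi, 0.32 in TFAM o/e, Aop RNAi, 0.36 in TFAM o/e, 0.39 in Pnt RNAi and 0.31 in Aop RNAi (SE 0.13 each), and limma's adjusted p was 0.300 to 0.787. These differences share the 3 control arrays, and that in Aop RNAi was -0.19 without Aop RNAi replicate 1. The second Cyp12e1 probe set, 1637309_a_at, read 9.66 to 10.51 in the other genotypes, against 10.32, 10.33 and 10.44 in control, with overlap. The probe sets of this gene thus differed in whether the groups overlapped.

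Cyp49a1, also of the mitochondrial clan, went the other way. It read 6.46, 5.75 and 5.67 in TFAM o/e, Pnt RNAi, 6.17, 6.30 and 6.38 in TFAM o/e, Aop RNAi and 6.51, 5.89 and 6.19 in TFAM o/e, against 4.81, 5.44 and 3.13 in control. The TFAM arrays did not overlap control, and the differences of 1.5, 1.82 and 1.74 (SE 0.46 each) did not pass (limma adjusted p = 0.292, 0.193 and 0.278). The lowest value, 3.13, was that of control replicate 3, without which the differences were 0.84, 1.16 and 1.07. Aop RNAi alone also averaged higher than control, by 1.17 ± 0.46 (limma adjusted p = 0.708; 0.51 without control replicate 3), and its arrays (5.19 to 6.03) overlapped both.

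Cyp301a1, which takes part in forming adult cuticle, read 6.06 to 7.67 and had no unadjusted p under 0.05 in any comparison. Cyp12b2 was lower in Aop RNAi (5.83, 6.57 and 6.39) than in control (7.07, 6.68 and 7.01), a difference of -0.66 ± 0.29 that did not pass (limma adjusted p = 0.823). Cyp12c1 and Cyp12d1-d were dim, and Cyp12d1-p, its near-identical copy, is measured only by a probe set shared between both genes, which read 0.24 to 5.49 and was not called.

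Among the 11 brighter CYP3 clan probe sets, Cyp9h1 was lower on most arrays with the TFAM transgene. It read 5.39, 6.69 and 5.99 in TFAM o/e, Pnt RNAi, 5.60, 6.09 and 5.36 in TFAM o/e, Aop RNAi and 5.12, 6.10 and 5.90 in TFAM o/e. It read 6.48, 7.15 and 6.99 in Pnt RNAi, 6.39, 7.43 and 6.17 in Aop RNAi and 6.69, 6.49 and 6.46 in control. The TFAM arrays lay under those of their background except in the Pnt RNAi pair, where 1 array overlapped. These differences from the matching background, and that of TFAM o/e, Aop RNAi from control, were between -0.84 and -0.98 (SE 0.38), and none passed (limma adjusted p = 0.753 to 0.941), and the average over the 3 backgrounds was -0.89 ± 0.22 (limma adjusted p = 0.107). Without TFAM o/e replicate 1 the difference in TFAM o/e was -0.55, without TFAM o/e, Pnt RNAi replicate 1 that from Pnt RNAi was -0.53, and without Aop RNAi replicate 2 that of TFAM o/e, Aop RNAi from Aop RNAi was -0.60.

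Cyp6u1 and Cyp28d1 were lower in a single knock-down. Cyp6u1 read 8.63, 8.85 and 8.92 in Pnt RNAi and 8.72, 9.06 and 8.58 in Aop RNAi, against 9.22, 9.20 and 9.27 in control, and Cyp28d1 read 9.35, 9.13 and 9.03 in Pnt RNAi, against 9.81, 9.82 and 9.48 in control. The groups did not overlap, and the differences, -0.43 and -0.44 for Cyp6u1 and -0.53 for Cyp28d1, stayed short of the threshold (limma adjusted p = 0.593, 0.703 and 0.599). In Aop RNAi, Cyp28d1 read 8.78, 9.53 and 9.29, which overlapped control. The difference there was -0.50, or -0.29 without Aop RNAi replicate 1. Cyp9f2 was between 9.90 and 10.69 on all arrays, with -0.40 ± 0.15 in TFAM o/e, Pnt RNAi relative to control (limma adjusted p = 0.483). Cyp9c1, Cyp6a13, Cyp28d2, Cyp6t1, Cyp6v1 and Cyp28a5 had no unadjusted p under 0.05 in any of the 9 comparisons. Cyp6d4 averaged 0.78 ± 0.32 higher in TFAM o/e than in control, with overlapping arrays (limma adjusted p = 0.819), and 0.45 without control replicate 3 or 0.50 without TFAM o/e replicate 1.

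**Figure D3:**
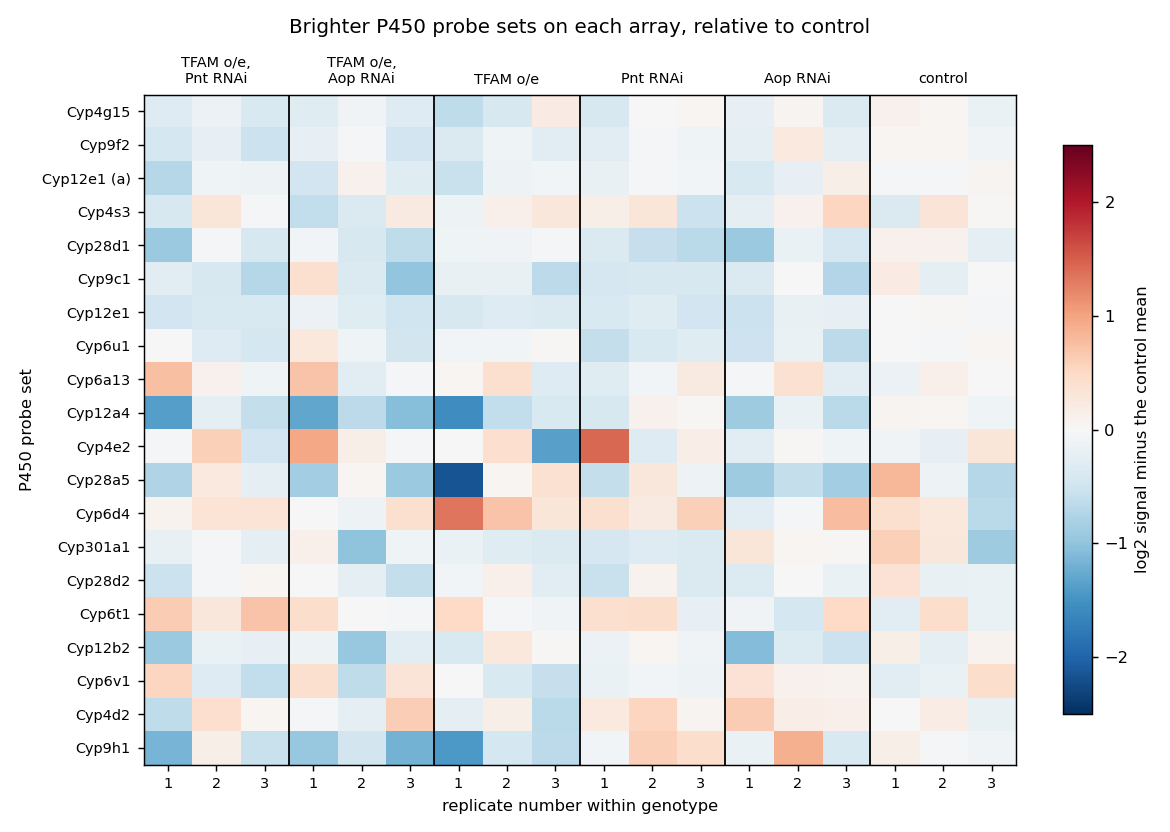
Log2 signal minus the control mean for the 20 P450 probe sets with mean log2 of at least 6 (rows) on each array (columns, 3 per genotype); blue is lower and red higher than control, and Cyp12e1 (a) is the probe set 1637309_a_at. The row of Cyp12e1 is lower on all 15 arrays outside control. That of Cyp12a4 is lower on all 9 TFAM arrays and on every Aop RNAi array, and that of Cyp9h1 on all TFAM arrays but TFAM o/e, Pnt RNAi replicate 2.

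Of the 4 brighter CYP4 clan probe sets, none was called. Cyp4g15, whose paralogue Cyp4g1 completes hydrocarbon synthesis in oenocytes, read 10.29 to 11.14 on the 18 arrays, and its genotype means spanned 0.29 with an SD of 0.24 between replicates. Cyp4g1 itself was dim, at 5.03 to 7.15. Cyp4s3 (9.07 to 10.22), Cyp4d2 (5.56 to 6.86) and Cyp4e2 (5.79 to 8.58) had no unadjusted p under 0.05 in any comparison.

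The larger CYP4 differences were in dim probe sets. Cyp318a1 read 4.87, 7.04 and 6.32 in Aop RNAi, against 1.14, 3.36 and 3.46 in control, and 1.14 to 4.32 on all 15 arrays outside Aop RNAi. It stood clear of every other genotype there, yet the difference of 3.42 ± 0.79 did not pass (limma adjusted p = 0.119). In TFAM o/e, Aop RNAi it read 3.65, 3.66 and 3.36, which is -2.52 ± 0.79 relative to Aop RNAi (limma adjusted p = 0.577). Its neighbour in the gene order, Cyp311a1, stayed at 3.20 or lower on all arrays.

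Cyp4d8 was listed at 0 on all 3 control arrays, and read 3.24, 4.35 and 4.52 in TFAM o/e, Pnt RNAi and 3.00, 2.61 and 3.37 in Pnt RNAi. The values of both Pnt RNAi genotypes were above control but under log2 5, where no fold change is given because the control is listed at 0; limma's adjusted p was 0.059 and 0.317. In the remaining genotypes the arrays ranged between 0.00 and 3.52. Cyp6d2, of the CYP3 clan, read 7.06, 5.79 and 5.59 in Pnt RNAi, against 3.45, 4.30 and 5.07 in control. These arrays did not overlap, and the difference of 1.87 ± 0.47 did not pass (limma adjusted p = 0.166).

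The remaining dim members gave scattered results. Cyp4e1 read 5.76, 5.44 and 5.58 in Pnt RNAi, against 4.57, 4.40 and 4.64 in control, without overlap, and it was called there only when signals under log2 5 were set to 5 (0.59 ± 0.11, limma adjusted p = 0.0424). Cyp4e3 read 1.08, 0.75 and 0.53 in Aop RNAi, against 2.60, 2.74 and 2.80 in control, where no value reached log2 5 (-1.93 ± 0.74, limma adjusted p = 0.692). Control replicate 3 set several of the dim differences. Cyp4ac1 read 6.82, 5.53 and 5.75 in Pnt RNAi, against 6.19, 5.18 and 0.28 in control (2.15 ± 1.00, limma adjusted p = 0.678), and Cyp9b2 read 6.32, 5.01 and 5.50 in Pnt RNAi, against 5.24, 4.98 and 1.91 in control (1.57 ± 0.67, limma adjusted p = 0.640). Without control replicate 3 these differences were 0.35 and 0.50, and without control replicate 1 that of Cyp4ac1 was 3.30. In both genes the other control arrays lay near or within the range of Pnt RNAi. The lone high value of Cyp309a1, 7.36, was that of Pnt RNAi replicate 1, with 4.14 or less on the other 17 arrays.

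The cyclophilins Cyp1 (12.43 to 13.64) and Cyp40 (9.18 to 10.02) were bright on all arrays, and neither had an unadjusted p under 0.05 in any comparison.

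Across the 20 brighter P450 probe sets, most differences from control were below 0. Negative differences numbered 16 of 20 in TFAM o/e, Pnt RNAi, 14 in TFAM o/e, Aop RNAi, 16 in TFAM o/e, 15 in Pnt RNAi and 13 in Aop RNAi, beside 55.1%, 51.4%, 51.6%, 46.1% and 47.3% of all brighter probe sets. The medians were -0.25, -0.24, -0.25, -0.10 and -0.13 on the log2 scale in that order, beside -0.03 to 0.02 for all brighter probe sets, and they stayed below 0 with quantile normalization (-0.16 to -0.24) and median centring (-0.02 to -0.23). The 5 comparisons share the control arrays. No brighter P450 probe set was called in a comparison between single genotypes (smallest limma adjusted p = 0.300), and the largest difference from control was 1.01 in size.

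A softer criterion, an unadjusted limma p under 0.05 together with full separation of both sets of arrays, was met by 3 of the 20 in each comparison with control, every time lower. These were Cyp12a4, Cyp12e1 and Cyp9f2 in TFAM o/e, Pnt RNAi (5.13% of all brighter probe sets were lower by this criterion), Cyp12a4, Cyp9h1 and Cyp12e1 in TFAM o/e, Aop RNAi (2.32%) and again in TFAM o/e (2.51%), Cyp28d1, Cyp6u1 and Cyp12e1 in Pnt RNAi (3.29%), and Cyp12b2, Cyp6u1 and Cyp12e1 in Aop RNAi (1.65%). None was higher, beside 1.98%, 1.99%, 1.57%, 3.52% and 1.51% of all brighter probe sets in the same order. In TFAM o/e, Aop RNAi against Aop RNAi it was met by Cyp9h1, which was lower (1.49% lower and 1.32% higher among all brighter probe sets). In the remaining comparisons no brighter P450 probe set met it, beside 1.7% lower and 0.99% higher for TFAM o/e, Pnt RNAi against TFAM o/e, 0.955% and 1.01% for TFAM o/e, Aop RNAi against TFAM o/e, and 4.46% and 1.62% for TFAM o/e, Pnt RNAi against Pnt RNAi.

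**Figure D4:**
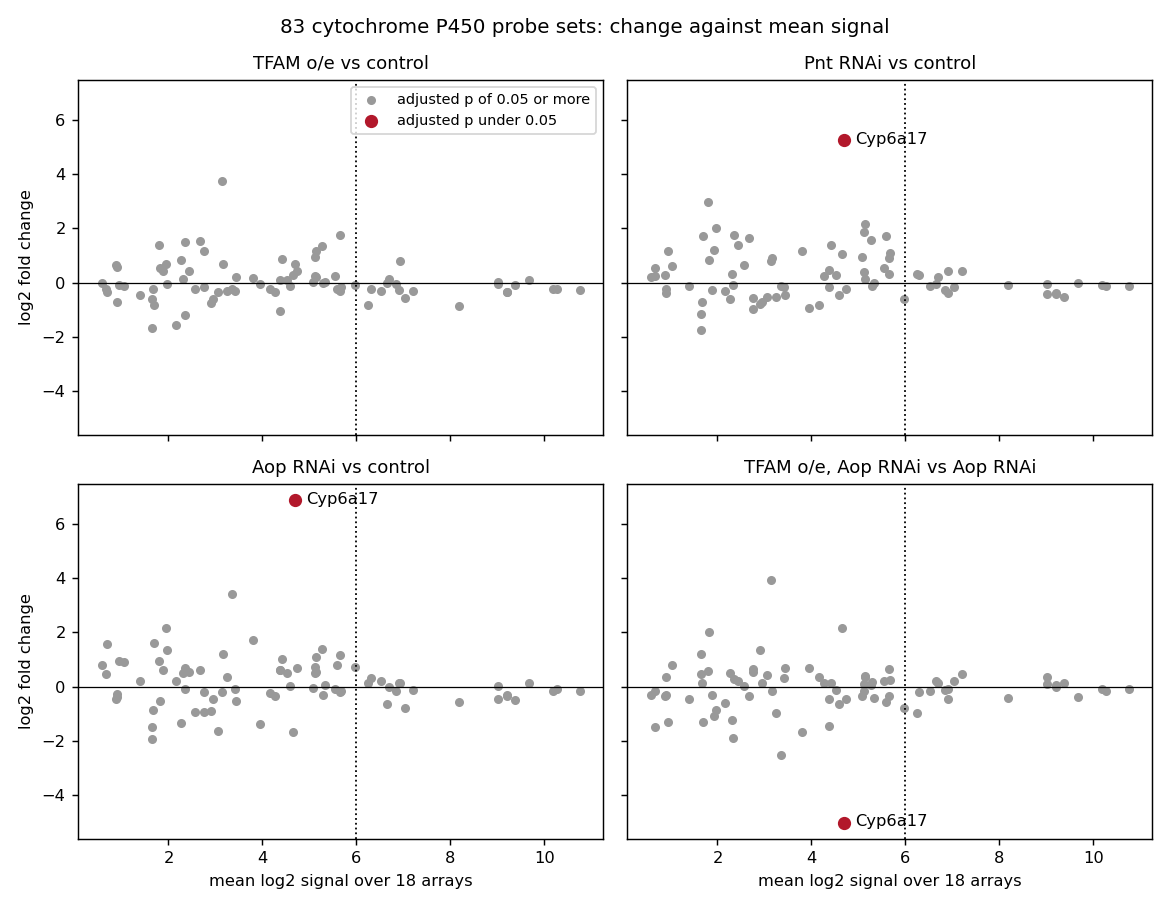
Log2 fold change of the 83 P450 probe sets (vertical axis) against their mean log2 signal over 18 arrays (horizontal axis) in 4 comparisons; red points passed limma's adjusted p of 0.05 and the dotted line marks log2 6. Right of the line all changes are small (at most 0.85 in size against control and 0.98 in TFAM o/e, Aop RNAi against Aop RNAi). The larger ones, with Cyp6a17 as the red point, are at low mean signal.

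Over all 83 P450 probe sets, an unadjusted limma p under 0.05 was reached by 9 higher and 3 lower in TFAM o/e, Pnt RNAi (3.51% and 4.99% of all probe sets), 5 and 3 in TFAM o/e, Aop RNAi (2.78% and 3.33%), 3 and 3 in TFAM o/e (2.03% and 3.5%), 8 and 4 in Pnt RNAi (3.3% and 3.93%), and 5 and 7 in Aop RNAi (2.78% and 2.95%), all relative to control. Relative to TFAM o/e the counts were 5 higher and 0 lower in TFAM o/e, Pnt RNAi (2.83% and 1.77%) and 1 and 1 in TFAM o/e, Aop RNAi (1.91% and 1.5%). Relative to the single knock-down they were 2 and 4 in TFAM o/e, Pnt RNAi (2.94% and 3.32%) and 3 and 5 in TFAM o/e, Aop RNAi (1.88% and 2.55%). Of the 71 such results over the 9 comparisons, 35 were in the CYP3 clan, 22 in the CYP4 clan, 14 in the mitochondrial clan and 0 in the CYP2 clan, which have 37, 32, 9 and 5 probe sets.

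No CYP2 clan probe set with a Cyp name was called in any comparison, and neither was any of the Halloween P450s measured. Cyp18a1, which inactivates the active moulting hormone, read 4.30 to 6.29 with one probe set and 0.53 to 4.70 with the other. Cyp305a1 (4.79 to 6.27), Cyp304a1 and Cyp303a1, a gene needed for sensory bristles, were dim. Of the Halloween P450s with names outside the Cyp rule, sad read 7.83 to 11.85, dib 5.78 to 8.67 and spok 6.80 to 12.04 over the arrays, spo 6.17 to 7.24 and shd at most 4.63, and none of the 6 probe sets of these 5 genes was called in any comparison.

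Some P450s moved with markers of tissues that can be left on a dissected CNS. With the mean of the ring gland markers (sad, dib, spok and Akh), Cyp6g2 had Pearson r = 0.75 over the 18 arrays (permutation p = 0.00017, Benjamini-Hochberg adjusted 0.0127 over 166 relations) and Spearman rho = 0.789 (permutation p = 0.0001, adjusted 0.0116). Without the 2 arrays farthest from the marker median r was 0.812, and for deviations from the genotype means it was 0.945. Cyp6g2 is known to be expressed in the ring gland. The second Cyp12e1 probe set ran against the same markers (r = -0.705, permutation p = 0.00133, adjusted 0.0442; rho = -0.698, p = 0.00164, adjusted 0.0907; r = -0.67 without the 2 farthest arrays), while 1626022_at of the same gene had r = -0.344 (permutation p = 0.162, adjusted 0.597) and rho = -0.254 (p = 0.307, adjusted 0.709).

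**Figure D5:**
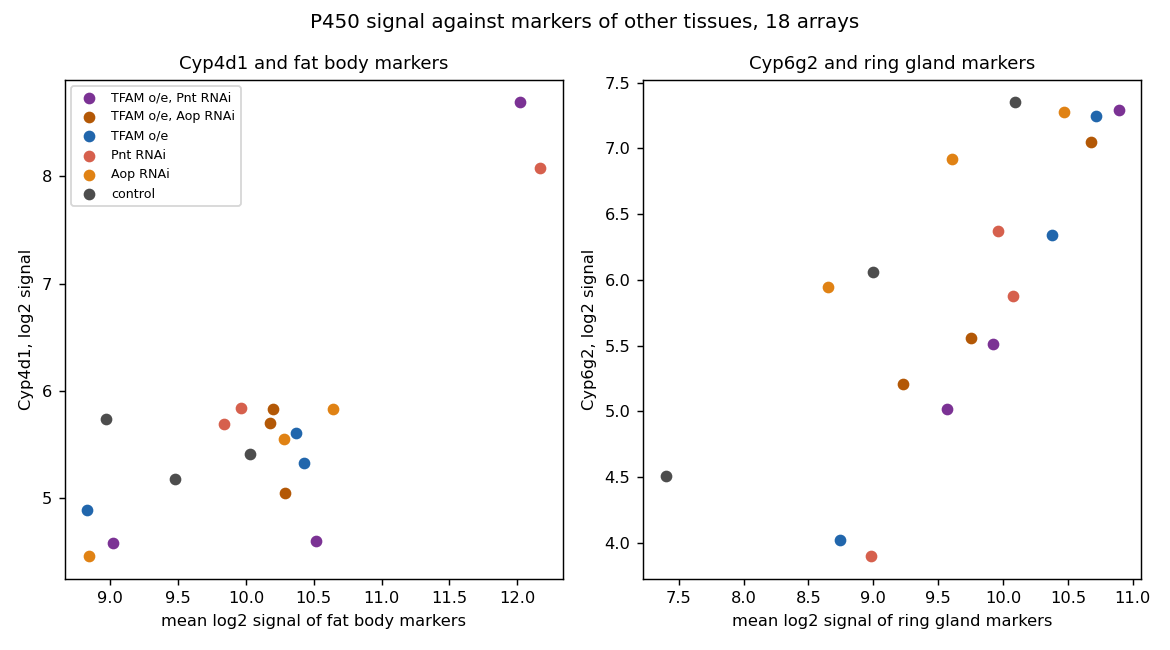
Left, Cyp4d1 log2 signal against the mean log2 signal of 3 fat body markers; right, Cyp6g2 against the mean of 4 ring gland markers, each point 1 of 18 arrays coloured by genotype. Cyp4d1 is high on the 2 arrays with fat body markers above 12 (8.08 in Pnt RNAi, 8.69 in TFAM o/e, Pnt RNAi), and Cyp6g2 follows the ring gland markers across all genotypes.

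Cyp18a1 (1631300_at) had r = 0.649 with the ring gland markers (permutation p = 0.00327, adjusted 0.0775). This did not pass and was not separated from its relation to fat body. With the fat body markers, this probe set had r = 0.765 (permutation p = 0.00023, adjusted 0.0127), rho = 0.802 (p = 0.00014, adjusted 0.0116) and r = 0.759 without the 2 farthest arrays. The other Cyp18a1 probe set, 1641022_a_at, had r = -0.0132 (permutation p = 0.958, adjusted 0.988) and rho = 0.11 (p = 0.666, adjusted 0.867). Both Cyp18a1 probe sets are dim, with mean log2 signals of 5.13 for 1631300_at and 2.76 for 1641022_a_at. Cyp4d1 (r = 0.814, permutation p = 0.00041, adjusted 0.0170; rho = 0.474, p = 0.0479, adjusted 0.466) and Cyp6g1 (r = 0.775, permutation p = 0.0002, adjusted 0.0127; rho = 0.577, p = 0.0136, adjusted 0.250) rested on Pnt RNAi replicate 1 and TFAM o/e, Pnt RNAi replicate 2, without which r was 0.447 and 0.493. On those 2 arrays Cyp4d1 read 8.08 and 8.69, Cyp6g1 8.78 and 6.83 and Cyp4e2 8.58 and 7.74. Within genotypes, r for deviations from the genotype means was 0.774, 0.812 and 0.804 for Cyp18a1, Cyp4d1 and Cyp6g1. These relations were looked for after the data had been seen, and their part in any comparison was not tested. In all, 3 of 83 P450 probe sets with fat body and 2 of 83 with ring gland markers had an adjusted p under 0.05 for Pearson's r.

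The redox partners and regulators of P450s that were measured were mostly not called. Of 7 redox partners listed, 4 were measured, and no probe set was found under the names Cpr, dare and Fdxh. Among the measured partners, the ferredoxins Fdx1 and Fdx2 and cytochrome b5 (Cyt-b5) were bright. Cyt-b5-r, a cytochrome b5-related protein, was dim, and none of the 4 was called. Of 11 probe sets for 9 regulators of xenobiotic and stress responses, 1 was called. This was cnc (1633379_s_at), the fly Nrf2, which is known to induce several detoxification P450s. It read 9.18, 9.21 and 9.48 in TFAM o/e, Pnt RNAi, 8.39, 9.61 and 9.20 in TFAM o/e, Aop RNAi and 10.51, 10.68 and 10.63 in TFAM o/e. It read 9.56, 9.08 and 9.47 in Pnt RNAi, 8.94, 8.62 and 9.51 in Aop RNAi and 10.40, 10.80 and 11.25 in control. All 12 arrays with an RNAi line were below all 6 without one. It fell by 1.53 ± 0.27 in TFAM o/e, Pnt RNAi (limma adjusted p = 0.01), by 1.75 ± 0.27 in TFAM o/e, Aop RNAi (adjusted p = 0.00416), by 1.45 ± 0.27 in Pnt RNAi (adjusted p = 0.0208) and by 1.79 ± 0.27 in Aop RNAi (adjusted p = 0.00389), all relative to control, and the limma difference in TFAM o/e was -0.21 ± 0.27 (adjusted p = 1.0). Relative to TFAM o/e it fell by 1.54 ± 0.27 in TFAM o/e, Aop RNAi (limma adjusted p = 0.0334), while the difference in TFAM o/e, Pnt RNAi was -1.32 ± 0.27 (adjusted p = 0.0684). A second cnc probe set was dim, at 3.93 or lower, and was not called.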

How the data were processed

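RNA of complete larval CNS was hybridised to 18 Affymetrix Drosophila Genome 2.0 arrays, 1 for each RNA sample. The authors summarised probe sets with MAS5.0 in Transcriptome Analysis Console and deposited log2 signals, which were used as given. Such signals have no detection call here and are unsteady when low, and the number of arrays limits the precision. Control probe sets (183 of 18952) were left out. A model of the 6 genotypes was fitted to 18769 probe sets with limma 3.58.1 (lmFit, eBayes with an intensity trend) in R 4.3.3, after tests on simulated data, and p-values were adjusted per comparison (Benjamini-Hochberg, 0.05). The study's methods compared groups by unpaired one-way ANOVA with a 1.5-fold limit. As an alternative standing in for it, an ordinary equal-variance t-test was run on the compared arrays, which for a pair of groups is the same test (Tukey's bi-weight means were not used), and the interactions and averages took the same unmoderated spread. Members and lists were chosen with earlier results of these data known. Members were named when called, when among the 10 with the highest mean, when brighter and separated between groups, or from a chosen list. Others, such as Cyp6t3, Cyp318a1, Cyp4d8, Cyp6d2, Cyp4d1 and Cyp6g2, were picked with their values in view, as were the averaged contrasts and the correlations (100000 permutations). No promoter or protein sequences were used here. Same-numbered arrays deviated together in every number (all correlations over 0.1) for TFAM o/e, Pnt RNAi against control and against TFAM o/e (0.335, 0.177 and 0.429), a pairing seen in the data and not stated in the labels. In each other comparison the correlation was under 0.1 for some number, while the replicate block was fitted to all genotypes.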

Additional observations from a re-analysis of the deposited data

Results flagged for a closer look

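Cyp6a17 was picked out because its change with TFAM overexpression differed between backgrounds by a direct test. The interaction of TFAM o/e with Aop RNAi was -5.70 ± 0.94 on the log2 scale (limma adjusted p = 0.0301). This call was lost in 13 of 19 alternative fits, among them 10 of the 12 without 1 array. Of the means that follow, only that of Aop RNAi lies above log2 5. Cyp6a17 averaged 3.79 ± 0.17 in TFAM o/e, Aop RNAi, against 8.81 ± 0.44 in Aop RNAi, and 2.60 ± 1.21 in TFAM o/e, against 1.92 ± 1.29 in control (SD of 3 arrays each). The cause was not tested.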

How the results depend on the processing

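Of the named results, called or not, 346 recomputed values kept their direction and side of the threshold, 26 lost the call and 0 reversed. The 346 include values of results that were never called and so had no call to lose. Of the 26, 13 belong to the interaction of TFAM o/e with Aop RNAi for Cyp6a17, which was kept in 6 of 19 alternatives. Counts of called members moved as follows, where the double genotypes are TFAM o/e with an RNAi line. Quantile normalization gave 1 in TFAM o/e and in each double genotype against control (Cyp6t3) and 2 in the Aop double genotype against Aop RNAi. Median centring gave the same counts, and 1 in the Pnt double genotype against Pnt RNAi. With the replicate block the counts were 1 in TFAM o/e and in the Aop double genotype against control and in the Pnt double genotype against Pnt RNAi, 2 in the Pnt double genotype against control and in the Aop double genotype against Aop RNAi, and 4 for the TFAM average (adding Cyp9h1 and Cyp12a4), and no call of these was lost. Setting signals under 32 to 32 gave 2 in Pnt RNAi against control, 1 in the Pnt double genotype against Pnt RNAi and for the TFAM average, and 0 for the Pnt average. Keeping only a mean log2 of at least 6, which removes Cyp6a17 and Cyp6t3, gave 0 in each contrast that had a call. Without the intensity trend the Aop interaction gave 0, and with only the arrays compared it and Pnt RNAi against control gave 0. The t-test standing in for the methods' ANOVA gave 0 after adjustment, except 2 for the TFAM average. In each comparison and interaction it called only 0 to 3 of all 18769 probe sets after adjustment. At its unadjusted threshold and 1.5-fold it gave 2 in TFAM o/e, 4 in Pnt RNAi, 4 in Aop RNAi, 4 in the Pnt and 6 in the Aop double genotype against control, 3 in each double genotype against TFAM o/e, 2 in the Pnt and 6 in the Aop double genotype against the single knock-down, 3 and 2 for the Pnt and Aop interactions, and 7 for each average, of 85 members each, where 2.64% to 3.52% of all probe sets passed. Without 1 array the counts were 0 to 1 in the Aop double genotype against control (1 without control replicate 2), 1 to 2 against Aop RNAi (2 without Aop RNAi replicate 2), 0 to 1 for the Aop interaction (1 only without control replicate 2 or TFAM o/e replicate 3), 2 to 3 for the TFAM average and 1 to 2 for the Pnt average. The causes were not tested. Under log2 5, where 46.4% to 49.7% of each array's values lie, size and direction are poorly measured.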
